A study of Mus musculus with 26 samples.

Results

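The genes Dlgap1, Dlgap2, Dlgap3, Dlgap4, Shank1, Shank2, Shank3 and Dlg4 were examined for DNA methylation in sperm. They are 8 of the 38951 RefSeq genes that had a covered CpG position in these data. The genes were chosen by name, and a position belonged to a gene if it lay inside the RefSeq span on GRCm38 or within 2000 bp of it and had at least 10 reads in a library. The choice used measured values, because Dlgap2 and Dlg4 had been picked for a difference in the sperm of transplanted founders, so the founder values are given here as a description only.

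The 8 genes encode the scaffold of the postsynaptic density, the protein layer under the membrane of excitatory synapses. Dlg4 encodes PSD-95, which binds glutamate receptors at the membrane, the Dlgap genes encode the linker proteins (SAPAP or GKAP) that bind PSD-95, and the Shank genes encode the scaffold that joins these linkers to Homer and the actin cytoskeleton. In mammals DNA methylation is placed mainly on the cytosine of CG dinucleotides, it is usually absent from CpG-rich starts of genes, and it is usually high over gene bodies in sperm.

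Sperm of the epididymis was measured by reduced-representation bisulfite sequencing (RRBS), which reads CpG-rich fragments cut by a restriction enzyme and gives, per cytosine, the share of reads that stayed unconverted. Spermatogonial stem cell transplantation (SSCT) founders, SSCT F0, were infertile W/W-v males (WBB6F1/J background) that had received long-term cultured spermatogonial stem cells of DBA/2J pups and made sperm from these donor cells (n = 3). Control F0 were DBA/2J males (n = 3), and both founder groups were 16 to 18 months old. The offspring were DBA/2J males of 3 months in 4 sets of 5: Control F1, SSCT F1, SSCT F2/M, sired by control males on SSCT F1 females, and SSCT F2/P, sired by SSCT F1 males on control females. Each group of founders had 3 males, so libraries of an offspring set can share a sire or grandsire, and p-values measure the spread between these mice only. No further control generation was bred, so both F2 sets were compared with Control F1. The host strain, the culture, the transplantation and a DNA input under the planned amount fell together in the SSCT F0 libraries and cannot be told apart.

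Set names follow the sample titles, and they are uncertain for the offspring. The treatment label of the libraries titled SSCT F2/M is wild type, and the heatmap of the study gives all 4 offspring sets other names (titled Control F1 appears there as SSCT F2/M, titled SSCT F1 as SSCT F2/P, titled SSCT F2/M as Control F1 and titled SSCT F2/P as SSCT F1). The founder names are the same in both. For this reason the gene means were also tested across the 4 sets without regard to names, and over all pairs of sets.

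Libraries held 45616751 to 87707577 reads over covered positions. SSCT F0 replicate 3 stood apart, with 305964 covered positions at a median of 145 reads, against 1123580 to 2232483 positions at a median of 16 to 36 reads in the other 25 libraries. Across genome positions the offspring libraries correlated with each other at r = 0.956 to 0.971 and the founder libraries at r = 0.427 to 0.875 (across positions, which are not independent). The maternally methylated imprinted starts that are unmethylated in sperm (9 of 10 listed genes measured) stood at 0.767% to 3.64% in the libraries other than SSCT F0, and at 2.61%, 4.14% and 8.92% in SSCT F0 replicates 1, 2 and 3, the last over 5 genes. Germ cell gene starts (all 7 listed genes) stood at 1.85% to 5.19% outside SSCT F0 and at 7.41%, 2.73% and 0.0282% in it, the last over 4 genes. The paternally methylated H19 region stood at 51.5% to 84.4% outside SSCT F0 and at 66.4%, 57.5% and 0.0282% in it. The part of these differences in the founder values of the scaffold genes was not tested, and the founder counts below are given with and without SSCT F0 replicate 3, and other founder values by library.

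The letters of a gene start show where its CG dinucleotides lie, though not which of them RRBS covered. The start of Dlg4 and the first start of Dlgap1 are printed because they hold covered CpGs, and in Dlg4 a CpG that differed in the founders. Both are RefSeq windows of GRCm38.p6 on the plus strand, from 250 bases before to 50 bases after the listed start, with each CG in capitals.
Dlg4, chr11:70018355-70018654: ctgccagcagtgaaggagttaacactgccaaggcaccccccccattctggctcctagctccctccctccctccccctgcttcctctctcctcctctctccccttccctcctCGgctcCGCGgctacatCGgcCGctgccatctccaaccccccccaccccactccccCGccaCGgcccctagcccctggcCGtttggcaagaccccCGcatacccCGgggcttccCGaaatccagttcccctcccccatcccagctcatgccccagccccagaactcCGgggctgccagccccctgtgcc
Dlgap1, chr17:69968823-69969122: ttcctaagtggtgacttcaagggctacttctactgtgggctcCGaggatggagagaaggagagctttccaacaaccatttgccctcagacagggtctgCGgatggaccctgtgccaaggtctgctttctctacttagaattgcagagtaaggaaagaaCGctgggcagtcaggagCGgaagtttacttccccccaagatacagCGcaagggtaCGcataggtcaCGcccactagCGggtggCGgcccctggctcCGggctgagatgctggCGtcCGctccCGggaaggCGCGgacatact
The Dlg4 window held 12 CG dinucleotides at a GC content of 69%, and the Dlgap1 window 15 at 57.7%. The motif CG (its own reverse complement) was present in 94.6% of the 32851 RefSeq windows of this length, at a median of 7 per window. At least 12 were present in 39.6% of windows and at least 15 in 34.6%. The start of Dlgap4 held 50 (0.855% of windows had as many) and the start of Shank3 held 40 (3.91% had as many). Neither of these windows had a position covered in all offspring libraries. The table of starts matched 5 of the 8 genes, and Dlgap2, Shank1 and Shank2 are named only.

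Of the 2626470 positions with at least 10 reads in any library, 4649 belonged to the 8 genes. Dlgap1 spans chr17:69969073-70821413 (662 positions), Dlgap2 chr8:14095776-14853426 (769), Dlgap3 chr4:127168305-127237022 (480) and Dlgap4 chr2:156613633-156764363 (609). Shank1 spans chr7:44308916-44360094 (568 positions), Shank2 chr7:143978077-144426043 (720), Shank3 chr15:89493013-89560261 (674) and Dlg4 chr11:70017203-70045535 (167). Coverage therefore ran from 0.777 positions per kilobase of span in Dlgap1 to 11.1 in Shank1. A position is a cytosine on a given strand, so the same CG can count on both strands. Other RefSeq genes lie inside several spans, among them the lncRNAs Gm46581, Gm36746 and Gm41609 in Dlgap1, C030037F17Rik in Dlgap2, Gm34111 and 4930405A21Rik in Dlgap4, Gm14372 and Gm34621 in Shank2 and Gm15609 in Shank3, and methylation there cannot be assigned to either gene. The end of Shank1 overlaps 1700008O03Rik. A gene-body exon or intron call is not given, since the annotation used here holds gene spans only.

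Exactly 673 positions of the 8 genes had at least 10 reads in all 20 offspring libraries, and 667 stayed after positions of extreme coverage were removed. At the edge of this minimum, values with 9 reads averaged 40.3% (2388 values) and those with 10 reads 40.6% (2467 values). Averaged over the 20 offspring libraries, 340 of the 667 positions (51.0%) lay under 10% methylation, 61 (9.15%) between 10% and 90%, and 266 (39.9%) over 90%. Over all 457806 positions of the genome covered in the same way, these shares were 60.5%, 12.1% and 27.4%. The scaffold genes were thus either nearly unmethylated or nearly fully methylated at most positions read, and the mean of a gene mainly gives the share of its fully methylated positions among those covered.

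The 4 linker genes differed in that share. Dlgap2 was the most methylated of the 8 genes, with 91 of 140 positions over 90% and a gene mean of 68.4% ± 0.684 (SD over 20 libraries). Dlgap4 had 32 of 79 positions over 90% and a mean of 44% ± 0.820. Dlgap1 and Dlgap3 were low, with 30 of 143 and 13 of 58 positions over 90% and means of 27.0% ± 0.742 and 26.7% ± 1.03, and these 2 means did not differ beyond their spread.
Among the Shank scaffolds, Shank2 stood at 60.9% ± 1.19 (69 of 120 positions over 90%), Shank3 at 51.3% ± 1.85 (22 of 46) and Shank1 at 10.1% ± 1.11 (3 of 56), the lowest of the 8 genes. Dlg4 stood at 29.7% ± 2.64, with 6 of 25 positions over 90%, and it had the widest spread between libraries (26.7% to 36.3%). Dlg4 also had the fewest positions, so a single variable CpG weighs more in its mean. The order of the gene means was Dlgap2, Shank2, Shank3, Dlgap4, Dlg4, Dlgap1, Dlgap3 and Shank1, and Dlg4 overlapped Dlgap1 and Dlgap3 within the spread.

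**Figure D1:**
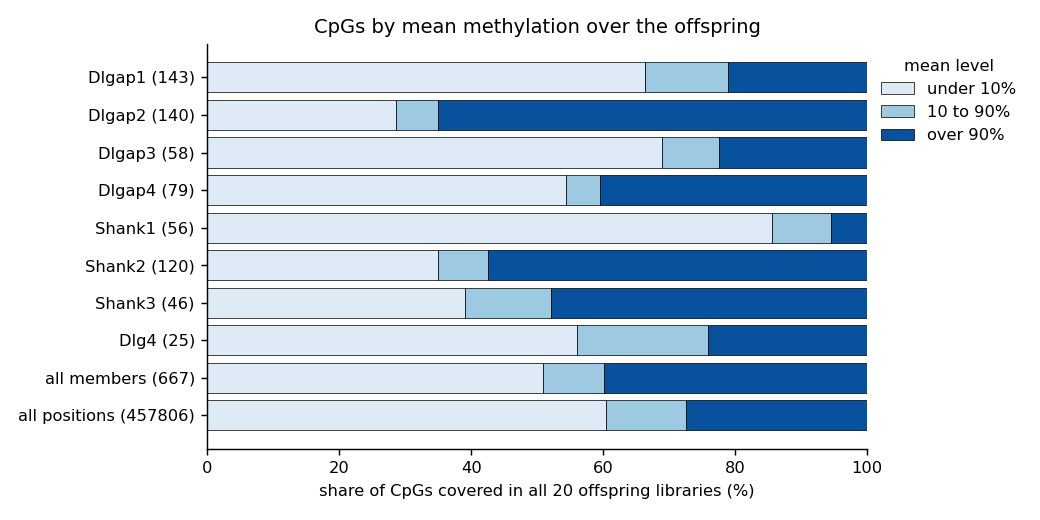
Share of covered CpG positions (x axis, percent) with a mean level under 10%, from 10% to 90% and over 90% over the 20 offspring libraries, as stacked bars per gene and for all positions of the genome, with the number of positions in parentheses. Dlgap2 and Shank2 are mostly over 90%, Shank1 is mostly under 10%, and the middle class is small in each gene, at most 20% of positions in Dlg4.

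Near the listed gene starts methylation was nearly absent. Within 1000 bp of a start, the 46 covered positions of Dlgap1 averaged 1.33% (0.426% to 2.85% over the 20 libraries), against 39.2% at its other 97 positions. In Dlg4 the 8 positions near the start averaged 2.55% (0% to 7.06%) against 42.4% at the other 17. Shank3 had 9 positions at 0.823% (0% to 4.01%) against 63.6% at 37, and Dlgap4 8 positions at 1.7% (0% to 9.87%) against 48.8% at 71. Each of these 71 start positions had a mean under 10%. Low levels were not confined to the listed starts. Of the other positions, 49 of 97 in Dlgap1 and 35 of 71 in Dlgap4 also had a mean under 10%. So had 9 of 37 in Shank3 and 6 of 17 in Dlg4. The start listed for Dlgap3 had no position covered in all 20 libraries. In the printed Dlg4 window the 8 covered cytosines lay between base 169 and base 279, and in the printed Dlgap1 window the 5 covered cytosines lay between base 281 and base 292 and averaged 0.965%.

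**Figure D2:**
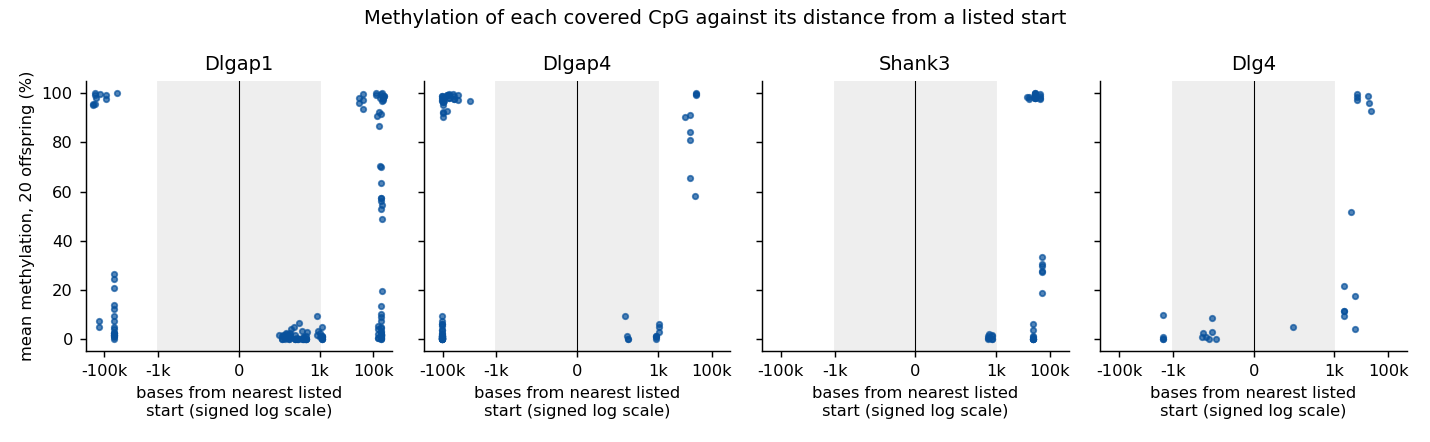
Mean methylation of each covered CpG over the 20 offspring libraries (y axis, percent) against its distance from the nearest listed start (x axis, bases, signed log scale) for the 4 genes with covered CpGs near a start. Points in the grey band, within 1000 bases of the start, all lie under 10%, and positions over 90% appear only outside it in these 4 genes. Many positions under 10% lie outside it as well.

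The control founders had similar levels. At positions covered in all 3 Control F0 and all 20 offspring libraries, Control F0 stood at 67.3% ± 0.083 in Dlgap2, 62.5% ± 0.751 in Shank2, 52.4% ± 1.16 in Shank3, 43.7% ± 1.47 in Dlgap4, 26.7% ± 0.493 in Dlgap3, 26.2% ± 0.924 in Dlg4, 24.1% ± 1.11 in Dlgap1 and 10% ± 0.970 in Shank1 (SD, n = 3). At these same positions the 4 offspring set means ran from 66.4% to 67.2% in Dlgap2, 61.2% to 63.5% in Shank2 and 52.9% to 53.6% in Shank3. They ran from 43.8% to 44.2% in Dlgap4, 26.1% to 27.6% in Dlgap3 and 28.0% to 29.4% in Dlg4. In Dlgap1 they ran from 23.7% to 24.3% and in Shank1 from 9.67% to 10.4%. The order of the genes was that of the offspring at these positions, except that Dlgap3 and Dlg4 changed places. Age differs between founders and offspring and was not tested as a factor.

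The 61 positions at intermediate levels differed widely between libraries. Their SD over the 20 offspring libraries ran from 8.91 to 30.2 percentage points, with a median of 15. In Dlgap1 a cluster from 70748601 to 70748725 was the most variable. The position 70748601 averaged 52.9% ± 30.2, and its libraries ran from 0% in Control F1 replicate 4 to 100% in SSCT F1 replicate 1, SSCT F2/M replicate 1 and SSCT F2/P replicate 5. In Dlg4 the position 70028048 averaged 51.5% ± 28.0, from 0% in SSCT F2/M replicate 4 to 100% in SSCT F1 replicate 4. In Shank3, 6 neighbouring positions from 89548624 to 89548658 averaged 18.7% to 33.3%, and each of them was at 0% in at least a single library. At 70748601 and at 70028048 all 4 sets overlapped.

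Gene means were compared between the offspring sets to ask whether sperm of SSCT descendants carried different methylation in the scaffold genes. Set means differed by 0.469 percentage points in Dlgap4, 0.534 in Dlgap1, 0.748 in Shank1 and 0.790 in Dlgap2 between the lowest and the highest set. In Shank3 the range was 1.69, in Dlgap3 1.71, in Dlg4 2.24 and in Shank2 2.32. The range in Dlg4 was 1.07 without SSCT F1 replicate 5 and 4.24 without SSCT F2/M replicate 1, and that in Shank3 was 0.654 without SSCT F1 replicate 2 and 2.59 without SSCT F1 replicate 4. Across all 19339 genes with at least 5 positions, limma's moderated F test over the 4 sets called no gene at an adjusted p under 0.05 (925 genes at an unadjusted p under 0.05), and each of the 8 genes had an adjusted p of 0.993. Without adjustment, limma gave Shank2 p = 0.00979 and Dlgap3 p = 0.0376, and the other members passed 0.05 in neither this test nor the permutation test. The permutation test over library labels (20 libraries) gave p = 0.0103 for Shank2 and 0.0286 for Dlgap3, and 0.244 to 0.795 for the others.

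Shank2 was highest in SSCT F1 and lowest in SSCT F2/M. Its gene mean in SSCT F1 was 62.5%, 62.4%, 61.1%, 61.2% and 63.0% in replicates 1 to 5, and in SSCT F2/M 60.3%, 60%, 59.1%, 59.3% and 59.8%, so these sets did not overlap. Control F1 (61.9%, 60.6%, 60.1%, 61.2% and 59.7%) and SSCT F2/P (62.5%, 61.7%, 59.7%, 61.6% and 59.8%) overlapped both. SSCT F1 exceeded SSCT F2/M by 2.32 points (limma 95% interval 1.06 to 3.58, exact two-sided permutation p = 0.00794, the smallest p that 5 against 5 allows, limma adjusted p over all genes 0.887). Against Control F1, SSCT F1 was 1.33 points higher (exact p = 0.0556) and SSCT F2/M fell by 0.995 points (exact p = 0.0714). At a minimum of 5 reads SSCT F2/M lay below SSCT F1 by a difference of -1.30 points (exact p = 0.175), and with read-weighted means of -1.40 points (exact p = 0.452). Under the names of the heatmap, the sets titled SSCT F1 and SSCT F2/M are SSCT F2/P and Control F1.

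Dlgap3 was lowest in Control F1. The gene mean was 27.4%, 25.7%, 24.2%, 25.4% and 25.3% in Control F1 and 27.5%, 27.4%, 27.5%, 27.5% and 26.7% in SSCT F2/P, and only Control F1 replicate 1 reached the SSCT F2/P range. SSCT F2/P exceeded Control F1 by 1.71 points (limma 95% interval 0.505 to 2.91, exact p = 0.0238, limma adjusted p 1.00). This difference was 0.190 points at a minimum of 5 reads (exact p = 0.222), 0.611 at 20 reads (exact p = 0.429) and 1.36 with read-weighted means (exact p = 0.468). Across the 4 sets the permutation p of Dlgap3 rose to 0.160 without Control F1 replicate 3 and lay above 0.05 in 7 other settings with a library left out. SSCT F1 was 1.44 points above Control F1 (exact p = 0.0635) and SSCT F2/M 1.22 points (exact p = 0.119). Over the 48 gene and set pairs, SSCT F1 against SSCT F2/M in Shank2 and SSCT F2/P against Control F1 in Dlgap3 were the 2 with an exact p under 0.05, and neither passed the correction over all genes. Under the names of the heatmap the Dlgap3 pair is SSCT F1 against SSCT F2/M.
For Dlgap2 the intervals bound the difference closely: SSCT F1 against Control F1 gave -0.730 points (limma 95% interval -1.72 to 0.265, exact p = 0.167). For Dlg4 the same contrast gave 2.24 points (-1.23 to 5.71, exact p = 0.230), with SSCT F1 replicate 5 at 36.3% and SSCT F2/M replicate 3 at 35.2% above the other 18 libraries, which ran from 26.7% to 32.6%.

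**Figure D3:**
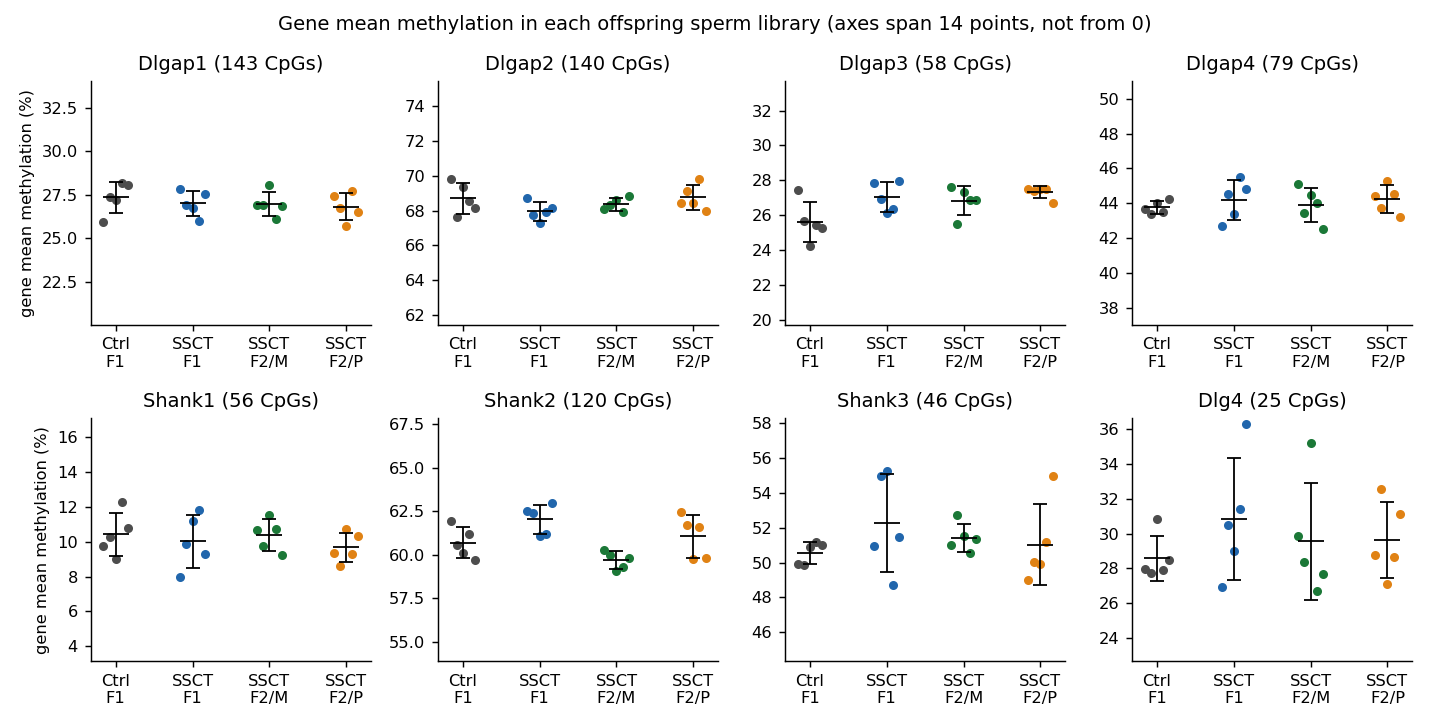
Gene mean methylation (y axis, percent) of each offspring library by set for the 8 genes, with the mean and SD of the 5 libraries in black. Each axis covers the same span of 14 points around the gene's own mean and does not start at 0. Sets overlap in each gene except SSCT F1 and SSCT F2/M in Shank2. The spread within Control F1, SSCT F1 and SSCT F2/M is widest in Dlg4, and that within SSCT F2/P is widest in Shank3.

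In the founders, 142 positions of the 8 genes had at least 10 reads in all 6 libraries, and 140 stayed after the limit on extreme coverage. A position is called here if the logistic model gave q under 0.01 over all positions and the read-weighted levels differed by more than 25 percentage points. Of the 140, 16 were called (11.4%), 7 lower and 9 higher in SSCT F0, beside 5.83% of all 82250 positions (3.2% lower and 2.63% higher). Of 32 windows of 1000 bp, 3 were called, 2 lower and 1 higher, beside 10% of all 19604 windows (7.24% lower and 2.76% higher). Dlgap2 and Dlg4 are members because of this contrast, so nothing is read from these shares. Called positions lay in 7 of the 8 genes and in none of the 13 positions of Shank2. All 140 positions were mostly low ones, with a mean of 8.87% to 9.85% in Control F0 and of 6.87%, 8.91% and 10.1% in SSCT F0 replicates 1, 2 and 3.

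The change in Dlgap2 lay in the window chr8:14340001-14341000, with 3 positions on the minus strand. Over the window Control F0 stood at 100%, 100% and 95.2%, and SSCT F0 at 19%, 32.4% and 0%, without overlap. At 14340135 the controls were at 100% in each library and SSCT F0 at 39.3%, 0% and 0%. At 14340179 the controls were at 100%, 100% and 92.9% and SSCT F0 at 0% in each. The third position, 14340153, was split, with SSCT F0 at 17.2%, 95.8% and 0% against 100%, 100% and 92.9%. These values rest on 22 to 66 reads in Control F0 libraries, on 23 to 29 reads in SSCT F0 replicates 1 and 2, and on 422 to 427 reads in replicate 3.

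In Dlg4 the called position was 70018528, 77 bases before the printed start and base 174 of the printed window, read on the minus strand. It was at 0% in each Control F0 library (92, 38 and 98 reads) and at 0%, 28.3% and 52.6% in SSCT F0 (46, 191 and 1071 reads). SSCT F0 replicate 1 thus equalled the controls. In Dlgap1 the positions 70517530 and 70517567 were at 45.6%, 0% and 29.4% and at 45.6%, 0% and 33.3% in Control F0 and at 0% in each SSCT F0 library, and Control F0 replicate 2 had the SSCT F0 value.
Most calls in the direction of higher methylation came from SSCT F0 replicate 3 alone. In Shank1, 44353076 was at 0%, 0% and 100% in SSCT F0 and 0% in each control, and 44336014 and 44336017 were at 0%, 3.33% and 100% and at 0%, 3.39% and 100% against 0% in each control. The window chr7:44336001-44337000 of Shank1 reached 49.9% in replicate 3 and at most 1.67% in the other SSCT F0 libraries. In Dlgap4, 156613662 was at 0%, 0% and 100% and 156721828 at 0%, 0% and 48.7%, against 0% to 8.89% in the controls, while 156737134 was at 78.1%, 41.3% and 0.296% against 64.1%, 92.9% and 65.6%. In Dlgap3, 127214433 was at 17.5%, 0% and 100% against 0%, 12.4% and 7.69%, and 127214856 at 0%, 0% and 34.4% against 0%. In Shank3, 89498098 was at 0% in each SSCT F0 library against 24.1%, 40% and 0%. At 8 of the 9 positions called higher, SSCT F0 replicates 1 and 2 lay at most at 17.5%.

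**Figure D4:**
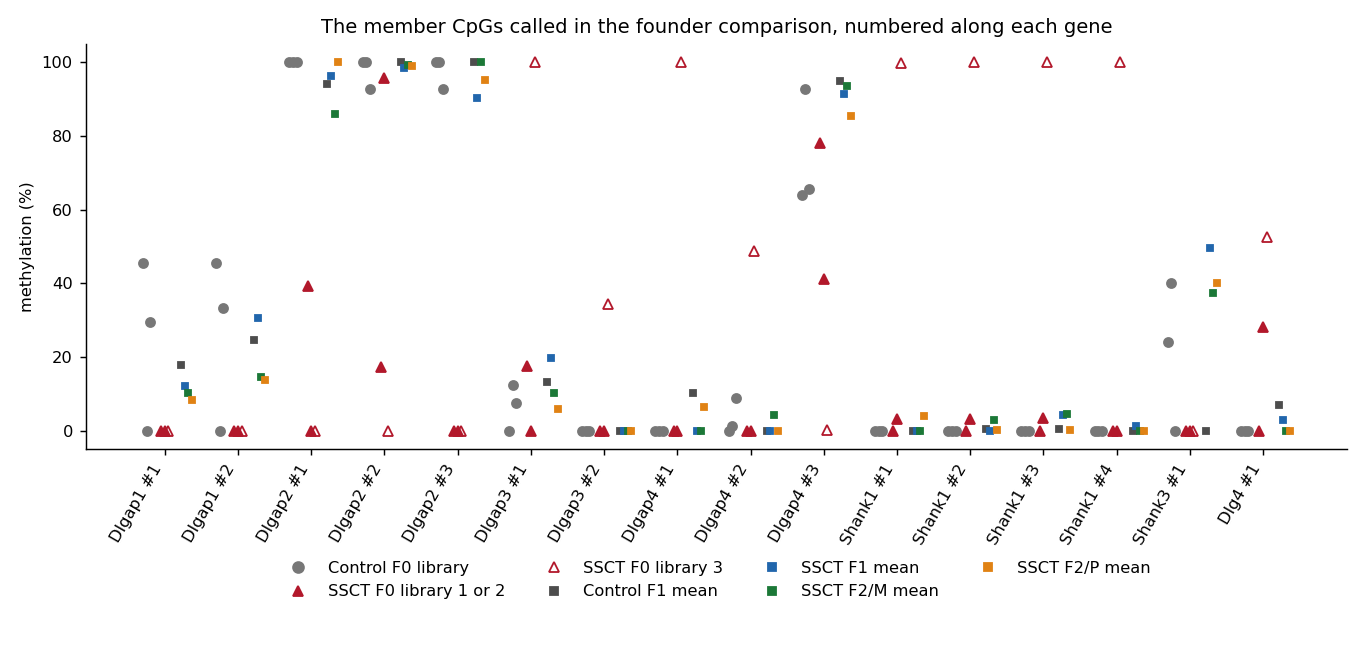
Methylation (y axis, percent) of the 16 CpG positions of the 8 genes called in the founders, numbered along each gene. Grey circles are Control F0 libraries, red triangles SSCT F0 libraries with replicate 3 open, and squares the means of the 4 offspring sets. The 3 Dlgap2 positions show SSCT F0 below the controls apart from a single library at 95.8%, the open triangles alone are high at the positions of Dlgap3 and Shank1 and at both Dlgap4 positions called higher, while at the Dlgap4 position called lower the open triangle is the lowest. At the Shank3 position the squares of the SSCT F1 and SSCT F2/P sets lie above the Control F0 libraries and that of Control F1 is at 0%.

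Without SSCT F0 replicate 3, 11 of the same 140 positions were called, 7 lower and 4 higher, and 7 of these 11 were among the 16. The share of all positions called on that unchanged set is not given, so nothing is read from this count. The pair of remaining SSCT F0 libraries shared many more positions with the controls: of 1057 positions of the 8 genes 64 were called (6.05%), 43 lower and 21 higher, beside 5.83% of 599359 positions (2.98% lower and 2.85% higher). Of 151 windows 15 were called (9.93%), all lower, beside 10.1% of all windows (7.2% lower and 2.94% higher). Dlgap1 held 16 lower and 4 higher positions of 155, Dlgap2 10 and 2 of 138, Shank3 5 and 2 of 166, Shank2 5 and 2 of 127, Dlgap4 3 and 3 of 157, Dlg4 3 and 1 of 35, Dlgap3 1 and 3 of 125 and Shank1 none and 4 of 154. The Dlgap2 window at 14340001, now with 5 positions, stood at 100%, 100% and 96.4% in Control F0 and at 28.3% and 18.1% in SSCT F0. In Shank2 the window chr7:144417001-144418000 stood at 95.7%, 92.7% and 87.5% against 10.1% and 0%. In Dlg4 the position 70030005 stood at 65.3%, 57.1% and 66.7% against 0% and 0%, while 70026263 stood at 0% in each control against 39.3% and 100%.

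The offspring were not used to find these positions, so the 16 could be followed there. Of the 7 positions lower in SSCT F0, 6 were covered in all 20 offspring libraries, and their mean was 70.1% in Control F0 and 22.4%, 22.9% and 0.0493% in SSCT F0 replicates 1, 2 and 3. In the offspring it was 71.9% ± 9.87 in Control F1, 69.9% ± 7.96 in SSCT F1, 67.3% ± 5.17 in SSCT F2/M, and SSCT F2/P stood at 67.0% ± 3.96 (SD, n = 5). The differences from Control F1 were -1.93, -4.58 and -4.87 points (exact two-sided permutation p = 0.778, 0.468 and 0.397). Control F1 libraries ran from 64.6% to 88.9% and overlapped each SSCT set. The 5 covered positions of the 9 higher ones stood at 0.678% in Control F0 and at 0%, 7.67% and 80.2% in SSCT F0, so the high level was that of replicate 3. In the same 4 offspring sets they stood at 1.65% ± 2.08, 1.44% ± 2.02, 2.35% ± 3.33 and 0.920% ± 2.06 (exact p = 0.762, 0.762 and 0.683).
At the Dlgap2 positions each set mean lay between 86.1% and 100% in the offspring. At Dlg4 70018528 all 10 F2 libraries were at 0%, SSCT F1 was at 0% except for 14.9% in replicate 3, and Control F1 was at 12.7%, 0%, 22.7%, 0% and 0%. Shank3 89498098 was covered in 15 of the 20 libraries. Control F1 was at 0% in its 4 covered libraries, SSCT F1 at 43.8%, 25% and 80%, SSCT F2/M at 0%, 100%, 0% and 50%, and SSCT F2/P at 50%, 36.4%, 40.5% and 34.0%, on 10 to 50 reads each. The covered SSCT F1 and SSCT F2/P libraries thus all lay above Control F1, 2 of the 4 SSCT F2/M libraries did not, and no test was made there. By the heatmap names the set at 0% throughout is SSCT F2/M, and Control F1 is the set at 0%, 100%, 0% and 50%.

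Single positions were then compared between each SSCT set and Control F1. In SSCT F1, 2 of 872 positions of the 8 genes were called, both lower, a share of 0.229% beside 0.462% of all positions (0.222% lower), and none of 200 windows (0.415% of all windows). In SSCT F2/M, 5 of 1034 positions were called (0.484%, beside 0.42%, and 0.201% lower) and 1 of 205 windows (beside 0.363%, and 0.175% lower), all of them lower. In SSCT F2/P, 6 of 1079 positions were called (0.556%, beside 0.43%), 5 lower and 1 higher (0.224% and 0.206% of all), and 1 of 217 windows, lower (beside 0.392%, and 0.226% lower). In the pooled F2 sets, 2 of 875 positions were called, both lower (0.229%, beside 0.187%, and 0.0958% lower), and none of 191 windows (beside 0.143%). Over both directions these shares lie near the background or below it. Taken by direction, the share called lower was 0.484% in SSCT F2/M, 0.463% in SSCT F2/P and 0.229% in pooled F2, above the background in that direction, on 5, 5 and 2 positions. Of these, 3 in SSCT F2/P are neighbours in Dlg4 and 2 in SSCT F2/M are neighbours in Dlgap4. The comparisons also share libraries, among them all of Control F1, so neither the positions nor the shares are independent. Under the names of the heatmap SSCT F1 had 5 of 1099 positions and 1 of 219 windows, all higher. SSCT F2/M had 5 of 1034 positions and 1 of 205 windows, all higher. Those names exchange the Control F1 and SSCT F2/M libraries, so these are the same positions and window, and their turn was fixed in advance. SSCT F2/P had 3 lower and 4 higher of 895 positions and 1 higher of 197 windows. The share of all positions called under these names is not given, so no result about the 8 genes is read from these counts. Leaving out a single library moved the counts of positions by more than 1.5 times in several cases, to 6 in SSCT F1 without its replicate 2 or 4, to 10 in SSCT F2/M without its replicate 2 and to 4 in pooled F2 without SSCT F2/M replicate 1. With a library left out more positions pass the read minimum, so such counts are not like for like. The F test, which lets libraries of a set differ beyond counting error, called none in any of these comparisons. It also called none of all positions or windows of the genome, so this is no result about the 8 genes. Without adjustment, it listed 1 position of the 8 genes with p under 0.05 and a difference over 25 points in SSCT F1 (0.239% of all positions), 1 in SSCT F2/M (0.214%), 3 in SSCT F2/P (0.223%) and 2 in pooled F2 (0.133%).

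The positions named below were called for a difference in the same libraries. Their exact p-values are therefore a description and give no independent support. In SSCT F1 the called positions were in Dlgap1 and Dlgap4. Dlgap1 70748725, part of the variable cluster, was at 48.3%, 100%, 82.8%, 100% and 94.6% in Control F1 and at 100%, 42.9%, 15.4%, 60% and 40% in SSCT F1 (exact p = 0.103). Dlgap4 156746036 was at 88.6%, 23.1%, 55.6%, 73.7% and 88.5% against 31.6%, 43.6%, 63.6%, 51.5% and 44.3% (exact p = 0.175). Both sets overlapped at both positions.
In SSCT F2/M, Dlgap3 127195209 was at 60%, 53.3%, 59.3%, 28.6% and 67.9% against 100%, 100%, 77.8%, 50% and 92.3% in Control F1 (exact p = 0.0476), and SSCT F2/P stood there at 69.0% to 100%. Dlgap4 156704456 was at 0%, 32.1%, 47.8%, 0% and 0% against 59.3%, 14.3%, 0%, 70% and 100% (exact p = 0.167), and its neighbour 156704490 gave an exact p of 0.0794. They lie inside the lncRNA Gm34111 as well as Dlgap4, and their window gave an exact p of 0.198. The low reads, 10 to 39 per library, leave each of these values with a wide counting error.

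Shank1 and Dlg4 held the positions called in both F2 sets. Shank1 44358534 was at 94.6%, 100%, 25%, 100% and 91.5% in Control F1, at 40.9%, 55.3%, 81.6%, 39% and 69.7% in SSCT F2/M (exact p = 0.175) and at 57.5%, 56%, 54.7%, 70% and 47.1% in SSCT F2/P (exact p = 0.135). With the F2 sets pooled the exact p was 0.0519. Control F1 replicate 3 lay below the lowest F2 library, SSCT F1 ran from 16.7% to 96.1%, and Control F0 stood at 100%, 70.5% and 75.7%.
Dlg4 70029998 was at 100%, 100%, 72.2%, 93.3% and 100% in Control F1, at 59.3%, 37%, 55%, 100% and 68.6% in SSCT F2/M (exact p = 0.0556) and at 72.9%, 65.5%, 69.7%, 66.7% and 53.6% in SSCT F2/P (exact p = 0.0159). Pooled, the exact p was 0.00599. This position was called in these same libraries, so its exact p-values give no independent support. The 2 F2 comparisons share the Control F1 libraries, SSCT F1 had only 1 covered library there, at 100%, and Control F0 ran from 33.3% to 95.2%, wider than Control F1.

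Dlg4 held 5 of the 6 positions of the 8 genes called in SSCT F2/P, of 48 tested in that gene, beside 0.43% of all positions. Nothing about the gene is read from this count, since Dlg4 was picked for a founder difference and neighbouring positions are counted singly. Of the 5, 3 form a cluster in the window chr11:70039001-70040000. The single higher one, 70026456, was at 8.33%, 0%, 0%, 23.1% and 9.33% in Control F1 and at 58.3%, 64.7%, 43.8%, 0% and 0% in SSCT F2/P (exact p = 0.167), with overlap. At 70039160 Control F1 was at 71.4%, 53.8%, 76.2%, 100% and 69.2% and SSCT F2/P at 0%, 56.9%, 19.4%, 27.6% and 44% (exact p = 0.0159). At 70039177 Control F1 was at 47.6%, 53.8%, 68.2%, 80% and 69.2% and SSCT F2/P at 0%, 55.8%, 25.8%, 20.7% and 12% (exact p = 0.0238). The positions lie closer together than a read is long, so they are not separate evidence.
Over the 4 plus-strand positions from 70039160 to 70039187 the mean was 68.3% ± 16.9 in Control F1 (n = 5), 53.7% ± 24.6 in SSCT F1 (n = 5, exact p = 0.357 against Control F1), 42.7% ± 11 in SSCT F2/M (n = 4, exact p = 0.0476) and 30.9% ± 21.1 in SSCT F2/P (n = 5, exact p = 0.0238). Control F0 stood at 50%, 42.3% and 28.9%. The cluster was chosen by its calls in SSCT F2/P against Control F1, so its exact p-values give no independent support.

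The minus strand of the same stretch gave other values. Over its 4 positions from 70039173 to 70039199, SSCT F2/P stood at 81.3%, 33.4%, 10%, 75% and 69.2%, a mean of 53.8% ± 30.7 (n = 5). Control F1 had 2 covered libraries, at 42.9% and 35.9%, both below that mean, and no test against Control F1 was made there. SSCT F2/P replicate 1 was at 0% on the plus strand and 81.3% on the minus strand. Over the 16 offspring libraries with both strands covered, the strands differed by 28.4 points on average (1.60 to 81.3), and by more than 25 points in 8.
The lower level of SSCT F2/P in this Dlg4 cluster was thus read on the plus strand, while on the minus strand 3 of the 5 SSCT F2/P libraries lay above both covered Control F1 libraries. Without SSCT F2/P replicate 1 the window was no longer called.

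**Figure D5:**
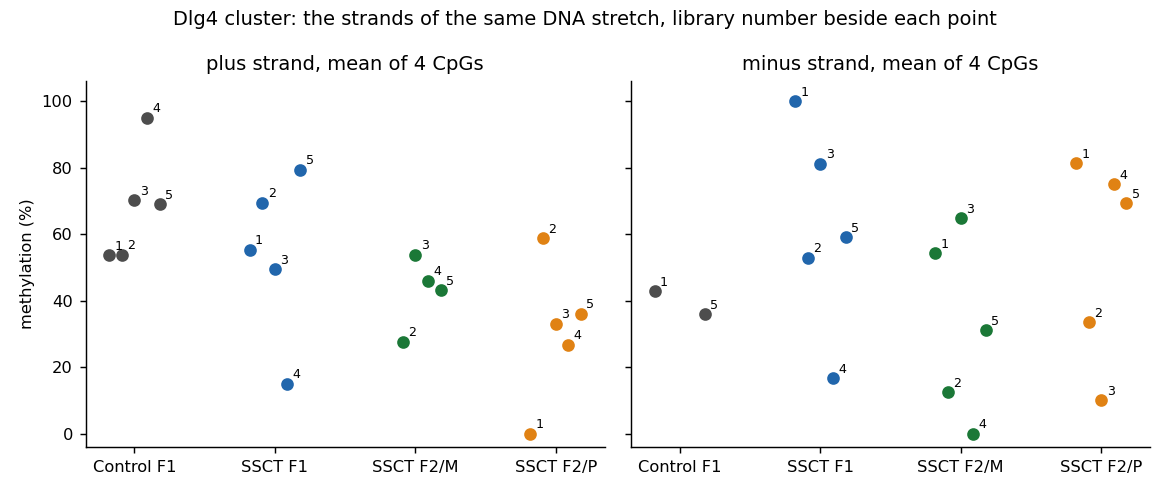
Mean methylation (y axis, percent) of the Dlg4 cluster in each offspring library by set, over 4 plus-strand CpGs on the left and 4 minus-strand CpGs on the right, with the replicate number beside each point. On the plus strand SSCT F2/P lies at 0% to 58.7% and Control F1 at 53.6% to 95%, and on the minus strand SSCT F2/P lies at 10% to 81.3% with Control F1 at 35.9% and 42.9%.

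The strands were compared at all CGs of the 8 genes with both cytosines covered in the same offspring library. Of 9975 such library values over 907 CGs, 82.1% differed by at most 10 points between strands, against 81.8% over all CGs of the genome. Where the average of the strands lay between 10% and 90% (1292 values), the strands differed by a median of 27.3 points and by more than 25 points in 56.1% of values, against 27.1 points and 54.8% over all CGs. A strand difference over 25 points was thus common at partly methylated CGs within a single library. The class is set by the average of the strands, so it takes in CGs with a high and a low strand. A call pools the reads of each set, so its 25 points are not like for like with these differences. Dlg4 had the lowest share within 10 points of the 8 genes, 63.4% of 336 values, and it also had the largest share of partly methylated positions.

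Other proteins of the postsynaptic density were counted in the same way. The list of 17 genes held the PSD-95 relatives Dlg1, Dlg2 and Dlg3, the Homer adaptors, the synaptic adhesion genes Nlgn1, Nlgn2 and Nlgn3, and the signalling and scaffold genes Sipa1l1, Cnksr2, Baiap2, Iqsec2, Anks1b, Cask, Mpp3 and Arhgef7. In the founders 7 of their 95 positions were called (7.37% beside 5.83% of all), 5 lower and 2 higher, in Dlg2 (4), Homer3 (2) and Nlgn2 (1), and 2 of 23 windows (8.70% beside 10%), both in Dlg2. Without SSCT F0 replicate 3, 54 of 823 positions were called (6.56% beside 5.83%), 37 lower and 17 higher, and 24 of 127 windows (18.9% beside 10.1%), 21 lower and 3 higher. In SSCT F1 2 of 735 positions were called, both in Dlg2 (0.272% beside 0.462%), and in SSCT F2/M 6 of 850 (0.706% beside 0.42%), 5 lower and 1 higher, in Dlg2, Nlgn1, Nlgn3 and Anks1b. In SSCT F2/P 2 of 910 (0.220% beside 0.43%) and in pooled F2 2 of 719 (0.278% beside 0.187%) were called, all of them higher and in Dlg2. No offspring window of the 17 genes was called. The F test called none of these positions, and none of all positions of the genome. At an unadjusted p under 0.05 with a difference over 25 points it listed 1, 2, 1 and 2 of them in the 4 offspring comparisons. The shares of all positions listed there were 0.239%, 0.214%, 0.223% and 0.133%.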

How the data were processed

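Sperm DNA of 26 mice was measured by RRBS (6 founders, 20 offspring). Per the labels and methods, the authors checked reads with FastQC, trimmed them with Trim Galore 0.4.1, aligned them with Bismark 0.20.0 to GRCm38 (mm10) and compared samples with methylKit 1.7.0. The deposited files give, per cytosine of a CG and per strand, the methylation as a fraction and the read count that covers it; the methylated count was recovered as their product, which came out whole within 0.02 for nearly all positions (at most 3 exceptions per library). RRBS reads are not marked by molecule, so PCR copies of a fragment count as reads and counting errors are too small. Spiked control DNA read 98.2% to 98.9% (methylated) and 0.542% to 1.26% (unmethylated).

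A comparison used positions read 10 times or more in all of its libraries, and left out those above the 99.9 percentile of coverage in any. A position or a 1000 bp window was called where a logistic model (chi-square likelihood-ratio test, as in methylKit) gave a Benjamini-Hochberg q under 0.01 over all positions and the read-weighted difference exceeded 25 points. Every position with such a difference was called in the 5 comparisons, so the calls are a rule of size. The F test with overdispersion, exact two-sided permutation tests over libraries, and a permutation test with 100000 shuffles across the 4 offspring sets use the spread between mice. Gene means are unweighted means over positions covered in all 20 offspring libraries, tested with limma 3.58.1 (R 4.3.3) over 19339 genes with at least 5 positions. Python 3.11.15, numpy 2.4.6, scipy 1.17.1 and pandas 2.3.3 were used. The scripts were tested on simulated data.

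The genes and gene lists were chosen with earlier results of these data known. All 8 genes are described. Called positions of a gene are named (all if 3 or fewer in a comparison, otherwise the 3 with the largest read-weighted difference, and Dlg4 70029998 in SSCT F2/P besides, chosen after its values were seen), as are the 3 genes with at least 20 positions whose means correlate best with the mean of the 8. Markers were 10 maternally methylated imprinted starts, 7 germ cell starts and H19. Groups follow sample titles. Sequences are RefSeq windows of GRCm38.p6, and 5 of the 8 genes matched. No genome sequence was used. Beside the 17 other postsynaptic genes, 1 more that was listed with them is not reported here.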

Additional observations from a re-analysis of the deposited data

Results flagged for a closer look

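Of 32 gene and set groups of 5 libraries, 2 had a library far from the other 4 (Dixon's rule), and of 22 position and set groups 2 had one. Chance gives about 1 in 20. The Dlgap3 gene mean of SSCT F2/P replicate 5 was 26.7%, below the other 4 libraries of its set at 27.4% to 27.5%. The Dlg4 gene mean of Control F1 replicate 3 was 30.8%, above the other 4 at 27.7% to 28.5%. The same library was the lowest of Control F1 at Shank1 44358534, with 25% against 91.5% to 100%, and at Dlg4 70029998, with 72.2% against 93.3% to 100%. Its part in the position results was not tested beyond leaving it out.

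Among 24 pairs of SSCT sets in the 8 genes, the Shank2 gene mean differed between SSCT F1 and SSCT F2/M by 2.32 percentage points (exact permutation p = 0.00794, higher in 5 of 5 SSCT F1 libraries than in any SSCT F2/M library). Under the names of the heatmap these sets are SSCT F2/P and Control F1, so whether this is a difference between SSCT sets is uncertain. The Shank2 difference did not pass the correction over all genes (limma adjusted p = 0.887).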

How the results depend on the processing

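The F test called 0 positions and 0 windows of the 8 genes in every comparison, and also 0 of all positions and windows. At a minimum of 5 reads, SSCT F1, F2/M, F2/P and pooled F2 had 7, 16, 13 and 11 called positions and pooled F2 1 window, and at 20 reads 0, 1, 0 and 0 positions and 0 windows in F2/M and F2/P. The positions tested change with this minimum, and the share of all positions called is not given beside these counts. They are therefore not read as a result about the 8 genes. With the strands of a CG merged, F2/P had 3 and pooled F2 1. Under the names of the heatmap, SSCT F1 had 5 of 1099 positions and 1 of 219 windows, all higher, and pooled F2 0 positions. The called positions turned from 5 lower to 5 higher in F2/M. This was fixed in advance, since these names exchange its libraries with those of Control F1. In F2/P they went from 5 lower and 1 higher to 3 lower and 4 higher.

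Gene pairs with an exact p under 0.05 numbered 4 at 5 reads, 4 at 20 reads, 1 with read-weighted means and 0 with the replicate block, where the smallest p is 0.0625. Both named pairs were lost at 5 reads and with read weights, and the Dlgap3 pair also at 20 reads. In the permutation test across sets Shank2 gave p = 0.189 at 5 reads and 0.0046 to 0.0392 with a library left out, and Dlgap3 gave 0.490, 0.156 and 0.421 at 5 reads, 20 reads and with read weights.

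The positions higher in SSCT F0 gave -7.09 points in F2/M at 20 reads, and the cause was not tested. With the heatmap names they gave -0.703 in F2/M, where the lower ones gave 4.58 in F2/M and 2.65 in F2/P. Those names exchange the libraries of Control F1 and SSCT F2/M, so both F2/M values are the main differences with the sign turned. The F2/P value is titled SSCT F1 minus titled SSCT F2/M.

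Leaving out a library gave 16 to 64 founder positions (64 without SSCT F0 replicate 3, which let more positions in; 11 at the same positions) and 3 to 15 windows. It gave 3 to 6 positions and 0 to 2 windows in F1, 4 to 10 and 0 to 2 in F2/M, 4 to 8 and 0 to 2 in F2/P, 1 to 4 and 0 to 1 in pooled F2, and 2 to 5 gene pairs. Here too a library left out let more positions in, so these counts are not like for like. Counts moved by over 1.5 times without SSCT F1 replicate 2, 3 or 4 or Control F1 replicate 2, 3 or 5 (F1), without SSCT F2/M replicate 1, 2, 4 or 5 or Control F1 replicate 1, 3, 4 or 5 (F2/M), without SSCT F2/P replicate 1 or Control F1 replicate 5 (F2/P windows), without SSCT F2/M replicate 1, SSCT F2/P replicate 5 or Control F1 replicate 2 (pooled F2), and without Control F1 replicate 1, SSCT F1 replicate 1, 3 or 4 or SSCT F2/P replicate 3 or 5 (gene pairs). The founder positions lower in SSCT F0 ran from -4.17 to 2.32 points (F1, above 0 without Control F1 replicate 4 or SSCT F1 replicate 4), -6.41 to -0.329 (F2/M) and -6.70 to -0.616 (F2/P), and the higher ones from -0.907 to 1.22, -0.475 to 1.43 and -1.65 to -0.00753.

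Same-numbered libraries did not deviate together (correlations of -0.0396 to 0.0549 in the offspring), so replicate numbers do not pair samples. With the replicate block the called positions were 16, 2, 4, 6 and 2 in the founders, F1, F2/M, F2/P and pooled F2. Over all settings, 230 of 300 alternatives of the counts and differences were kept, 58 moved and 12 changed direction. Of the other gene values, 223 of 242 were kept and 19 became weaker. Kept means, for a count, no move by over the factor named above, whichever its direction. For a difference or gene value it means a p on the same side of 0.05. With the replicate block no p could fall under 0.05, so a difference kept there is no check. The heatmap names cannot change the count over all gene pairs, so that count is no check either. In F2/M those names only exchange the libraries with Control F1, so the turned direction there was fixed in advance. Positions with 10 to 30 reads carry a counting error of the size of many differences named here.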

Other observations

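Over the 20 offspring libraries, the mean of the 8 gene means followed Dlg4 most closely (Pearson r = 0.854, n = 20 libraries), since Dlg4 varied most. Outside the 8 genes, and among 9177 genes compared, the gene means of Gm33099 (r = 0.740), Zmat3 (r = 0.723) and Larp6 (r = 0.714) were the most like it. These are the highest of many values and a description of these libraries.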
